A study of Drosophila melanogaster with 4 samples.

Results

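Read-through transcripts run from one transcription unit into the next on the same strand, so that a single RNA carries exons of both. Here they were taken from 1 merged catalogue of transcript structures from Drosophila melanogaster testes, made by Iso-Seq, the PacBio assay that reads cDNA of polyadenylated RNA in full length. A transcript was a member when its exons overlapped the coding sequence (CDS) of at least 2 other transcripts on its strand. Those 2 partners had to have spans that did not overlap each other, and each had to lie at least 80% within the span of the member. Of 40180 transcripts, 1865 met the rule (4.64%), and they came from 672 of 9100 loci. The members were chosen by the exon, CDS and span positions in that catalogue, so these numbers are a description.

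The libraries came from testes with kmg knocked down by RNAi under bamGAL4 (genotype bamGAL4/ KmgRNAi, called KmgKD, 2 samples) and from testes with the bamGAL4 driver alone (genotype bamGAL4, called Control, 2 samples). The driver acts in late spermatogonia, and kmg encodes a zinc-finger protein of spermatocytes. Both groups shared the driver, 150 pairs of testes per sample, males 0 to 2 days old, and a shift from 25 to 29 °C after 3 days of crosses. The authors merged all 4 samples into the catalogue, in which 0 lines name a sample or condition and no read number is given. No join below can be assigned to KmgKD or to Control, the depth is unknown, and no spread between samples could be measured. All 11 germline markers looked up (kmg, bam, bol, twe, aly, can, topi, Mst77F, dj, fzo and CycB) and all 4 cyst cell markers (tj, eya, zfh1 and so) had at least 1 coding transcript.

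Transcription normally ends beyond a gene's cleavage and polyadenylation site, and the next gene starts from its own promoter. When polymerase passes that site, the longer RNA can be spliced from exons of the first gene to exons of the second, or it can keep the stretch between them as exon. Ribosomes usually translate the first suitable reading frame from the 5' end, and a stop codon that lies upstream of later splice junctions is a known feature of targets of nonsense-mediated decay. A few Drosophila loci are known to place 2 separate proteins on 1 RNA, among them Adh with Adhr and stnA with stnB.

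The label "separate units" held for fewer than the full set of members. The partners could be named as 2 different protein-coding genes for 749 members (40.2%, 95% exact binomial interval 37.9 to 42.4). In 664 of these the RefSeq spans of the 2 genes did not overlap (35.6% of members, and 1.65% of the catalogue), and in 85 they did. For 903 members (48.4%) both partners fell in the same RefSeq gene, and for 213 (11.4%) at least 1 partner remained without a name. Each of the 1865 members carried the same locus number as its partners. The authors' locus numbers therefore do not mark where a gene ends. Intervals here and below cover counting error over transcripts or gene pairs, which are not replicates.

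Members over 1 gene differed from joins of 2 genes in what they encode. The CDS of the member was in frame with both closest partners in 741 of 903 members over 1 gene (82.1%, interval 79.4 to 84.5). Among joins of 2 genes with separate spans this was so in 72 of 664 (10.8%, interval 8.58 to 13.5). The median CDS was 2568 bases over 1 gene and 1383 bases in joins, against 1269 bases in transcripts outside the rule. Joins had a median length of 3090 bases, against 1865 outside the rule, a difference that the selection fixes in part, since a member must span 2 separate coding transcripts. The CDS filled a median of 46.2% of a join's length, against 70.7% of a transcript outside the rule. The selection also bears on CDS length, frame and this share. A member over 1 gene holds 2 coding transcripts of that gene, and the catalogue lists at most 1 CDS per transcript. The 1-gene members were most frequent at yuri (31), salto (30) and Pdk1 (20), 3 genes picked here after their values were seen. Their partners are shorter transcripts of the same gene, and the rest of the text is about joins of 2 genes.

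The 664 joins linked 415 pairs of genes with separate spans, made up of 772 genes. A single transcript carried the join in 268 pairs, at least 2 did in 147, and at least 5 did in 10. Both genes of a pair also had other transcripts with a CDS named to them, with a median of 4 at the 5' gene and 3 at the 3' gene. These can include joins to a further gene, and the rule itself requires a coding partner at each gene. Joins made up a median of 14.3% of the coding transcripts listed for a pair. In 19 transcripts exons of 3 named genes were joined, as in CG14402, twit and bero (4 transcripts, the last 2 genes encoding Ly6-type proteins) and in the testis endonuclease genes Tengl1, Tengl2 and Tengl3 (2 transcripts). In some of the 19 the RefSeq spans of 2 of the 3 genes overlap, as for CG34140 with Mkp and CG12426 with CG34353. Their exons need not come from 3 separate genes.

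Most joined pairs were tandem neighbours, as defined below (276 of 415 pairs, 66.5%). The gap between the partners had a median of 876 bp (quartiles 188 and 3710 bp, range 0 to 103976 bp) over 664 joins, taking the smallest gap of each. Between RefSeq spans the median was 802.5 bp over the joins and 1437 bp over the 415 pairs. A partner can itself run past its gene, which makes the gap between partners smaller. For PpD3 with Mpi it was 300 bp, against 8527 bp between RefSeq spans. To set this against the catalogue, tandem neighbours were defined as protein-coding genes on the same strand, both with a coding transcript, with no other protein-coding gene in between. Of 3106 such pairs, 276 were joined (8.89%), and the joined pairs had a median RefSeq gap of 410.5 bp, against 1265 bp in pairs without a join. Below 200 bp, 93 of 498 pairs were joined (18.7%, interval 15.3 to 22.4). The share was 9.03% from 200 to 499 bp, 9.71% from 500 to 999 bp, 6.49% from 1000 to 1999 bp, 7.49% from 2000 to 4999 bp and 4.1% from 5000 to 9999 bp. At 10000 bp or more it was 2.55% (8 of 314 pairs, interval 1.11 to 4.96). The share did not fall at every step, and the intervals of neighbouring bins above 200 bp overlap. The rule needs a coding transcript of each gene inside the member, and the number of transcripts per pair was not matched here.

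**Figure D1:**
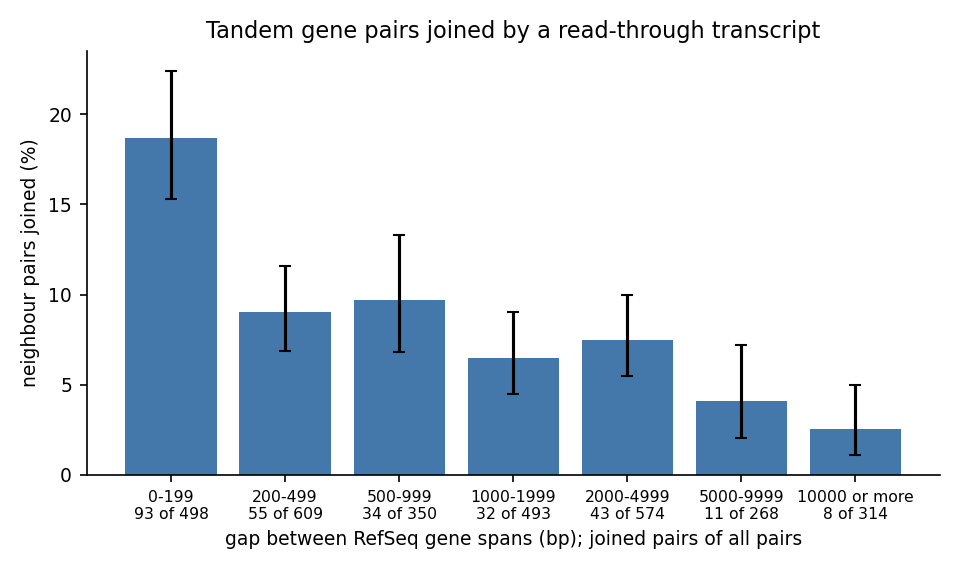
Share of tandem neighbour gene pairs (%) joined by at least 1 read-through transcript, by the gap between the RefSeq gene spans (bp); bars are shares, lines are 95% exact binomial intervals, and the numbers under the bars are joined pairs of all pairs. The share was 18.7% below 200 bp and 2.55% at 10000 bp or more.

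On the X chromosome 13 of 365 tandem neighbours were joined (3.56%, interval 1.91 to 6.01). The other arms lay between 8.75% on 2L and 10.3% on 3R, with 9.08% on 2R and 9.98% on 3L. The median gap of tandem neighbours was 1302 bp on X, against 1090 bp (3L) to 1217 bp (2L) on the other arms. As a share of transcripts, joins made up 0.68% on X and 1.52% to 1.93% on the other 4 arms, and the 13 transcripts of the Y chromosome included none. No test of this difference was run.

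Of the 415 pairs, 130 (31.3%) had at least 1 further protein-coding gene wholly inside the gap. In 36 of the 130 such a gene lay on the strand of the join, and in 42 all of them lay on the opposite strand; in the other 52 none was found on the strand of the join, but for at least 1 no strand could be set. The largest gap, 165090 bp on 3R, lay between CG12426 and CROT, a carnitine acyltransferase gene. CG12426 lies wholly inside the RefSeq span of CG34353, however, and the same 16-exon transcript joined CG34353 to CROT over 63314 bp, the gap by which the range above counts it. The transcript from Gbeta76C, the G protein subunit of photoreceptors, to the sterol regulator SREBP skipped a gap of 103976 bp and 8 genes on 3L in 1 intron. One transcript from oaf to the insulator gene Elba2 covered 79318 bp and 7 genes. A pair of transcripts from CG14926 reached the kinetochore kinesin gene cmet over 73281 bp and 5 genes. Another large gap, 85195 bp from ntc, an F-box gene of sperm individualization, to CG32264, lay between genes whose RefSeq spans overlap. Both ntc and the joining transcript lie wholly inside the CG32264 span, so this transcript can also be read as one of CG32264 alone.

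At the other end, ste24b and CG30461 were joined with a gap of 0 bp by 2 transcripts, which held the whole ste24b CDS (1344 bases, a prenyl protease) and the whole CG30461 CDS (1281 bases). CG30394 and CG33655 were joined 3 times with a gap of 3 bp. A further 3 of the smallest gaps were between genes whose spans overlap slightly, Surf6 with ClpX (0 bp between partners), CG31924 with CG5561 (3 bp) and CG30099 with CG30324 (4 bp). Tengl1 and Tengl2, with separate spans, also had a gap of 4 bp in 1 join and of 8 bp in 3. The CG30099 join was an unspliced RNA of 1428 bases that held an intact CDS of 654 bases and another of 495 bases. The smallest gap was exonic in these pairs except that of CG31924 with CG5561, which an intron removed.

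There were 3 ways across the gap. One intron removed the whole gap in 329 joins (49.5%, interval 45.7 to 53.4), an intron ended inside the gap in 157 (23.6%), and the gap lay wholly in an exon in 178 (26.8%). The median gap was 2161 bp where an intron removed it, 1357 bp with an intron end inside, and 143 bp where it was exonic. The introns over a gap had a median length of 5947 bp, against 71 bp for all 145023 introns of the catalogue. Part of that difference is set by the definition, since such an intron cannot be shorter than the gap.

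The joining introns mostly used a 3' splice site that the downstream gene also used on its own. The acceptor was one of a 3' partner in 270 of 329 (82.1%, interval 77.5 to 86.1), while the donor was one of a 5' partner in 157 (47.7%, interval 42.2 to 53.3). Both sites were in use in 139 joins (42.2%), the acceptor alone in 131 (39.8%), the donor alone in 18 and neither in 41. In 107 joins (32.5%) the intron ran from the last donor of a 5' partner to the first acceptor of a 3' partner, which leaves out the last exon of one gene and the first exon of the other. The 329 joins used 271 distinct introns, of which 36 (13.3%) were shared by at least 2 joins. The first exon of a gene has no acceptor and its last exon no donor, so a join through that first exon or out of that last exon has to use a site that the partners lack.

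The outer ends of the joins were mostly ends that the single genes used too. The 5' end was at most 100 bp away from that of a 5' partner in 591 of 664 joins (89.0%), and the 3' end within 100 bp of that of a 3' partner in 632 (95.2%). Against the RefSeq gene spans the figures were 46.8% for 5' ends and 70.9% for 3' ends. The rule asks that partners lie mostly inside the member, which limits how far a partner can reach beyond its ends. The nearest of all partners was taken each time. The shares against partners are therefore set in part by the selection, which also leaves out transcripts that end far inside both genes.

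The catalogue gives each transcript at most 1 CDS, so 2 proteins on 1 RNA cannot be listed as such. What can be counted is whether the exons of a join still hold the complete CDS of both genes with their splicing, taking the CDS of any listed transcript of the gene, which can be a short isoform. This was so in 328 of 664 joins (49.4%, interval 45.5 to 53.3), from 222 of the 415 pairs. The intact CDS of these joins had a median of 960 bases at the 5' gene and 1134 bases at the 3' gene. Here and below, a gene counts as covered when the listed CDS shares at least 1 base with a partner CDS of it, in any frame. The listed CDS covered the 3' gene alone in 195 of the 328, the 5' gene alone in 132, and both in 1. Among 322 of them with 1 gene covered and intact CDS of unequal length, the listed CDS was at the gene with the longer intact CDS in 251 (78.0%). Which of the frames is translated was not measured.

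Over all 664 joins the listed CDS covered the 3' gene alone in 351 (52.9%), the 5' gene alone in 200 (30.1%) and both in 107 (16.1%). With at least 50% of a CDS of each gene required, both were covered in 58 (8.73%). A CDS over both genes was found in 104 of 329 joins with an intron over the gap (31.6%), in 3 of 157 with an intron end inside it (1.91%), and in 0 of 178 with an exonic gap, which allows up to 2.05% (upper bound of the exact interval). Joins with an exonic gap instead had the CDS of the 3' gene in 109 and that of the 5' gene in 69. The contrast is set in part by the definition. An exonic gap keeps the end of a 5' partner, where its stop codon can lie, while an intron over the gap can remove it.

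**Figure D2:**
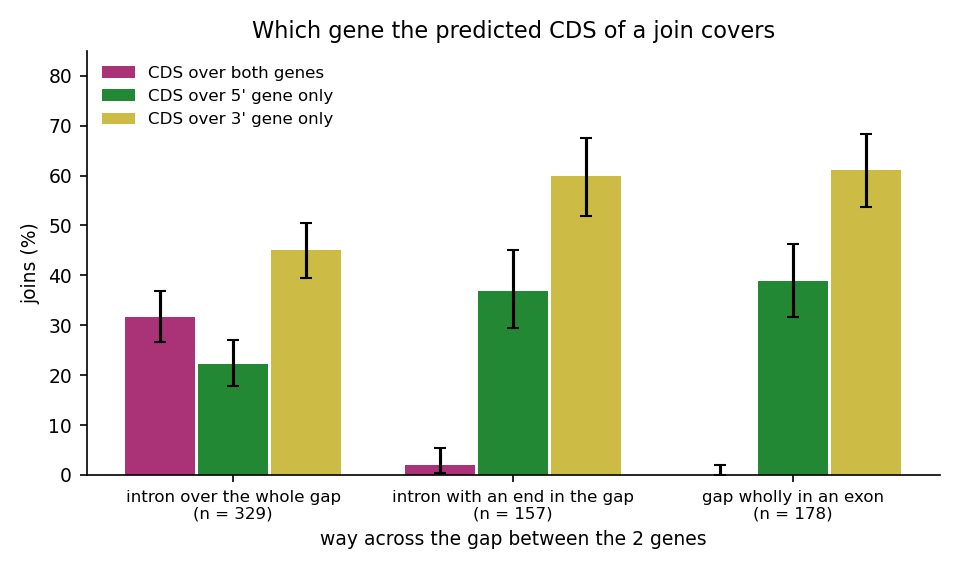
Share of joins (%) whose predicted CDS covers both genes, the 5' gene only or the 3' gene only, by how the transcript crosses the gap; lines are 95% exact binomial intervals. A gene is covered when at least 1 base of a partner CDS is shared, in any frame. A CDS over both genes was found in 31.6% of joins with an intron over the whole gap and in 0 of 178 joins with an exonic gap, a contrast set in part by the definition of the classes.

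Joins with the CDS of the 3' gene carry the upstream gene as a leader. Of these 351, 265 (75.5%) kept both the start and the stop of a 3' partner, and 220 (62.7%) held an intact CDS of the 5' gene ahead of it. The most frequent join of the catalogue was of this kind. It consisted of 12 transcripts that ran from ppk5, a gene of the pickpocket sodium channel family, into Rpn10, which encodes a ubiquitin receptor of the proteasome (3L, 21533258 to 21538597, plus strand; RefSeq spans 21534660 to 21536861 and 21537000 to 21538582). They started 1372 to 1402 bp upstream of the annotated ppk5 span, at 21533258, 21533280 or 21533288, and ended within 24 bp of the Rpn10 end. Their CDS was that of Rpn10, with 1191 bases in 11 and 1197 bases in 1. The ppk5 CDS of 1260 bases was intact in 2 of the 12.

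CG32163 and l(3)73Ah, which encodes a RING-finger protein, were joined by 10 transcripts on 3L, each with the 669-base CDS of l(3)73Ah. In 3 of them the gap of 284 bp was exonic and an upstream CDS was intact, of 432 bases in 1 and 183 bases in 2. PpD3, a protein phosphatase gene, and Mpi, the gene of mannose phosphate isomerase, were also joined 10 times (3R, 9743501 to 9761208, plus strand). All 10 entered Mpi at the acceptor 9759849, 7 of them from the donor 9750714 and 3 from 9754275. The Mpi CDS of 1191 bases was listed in 9 and the PpD3 CDS of 1563 bases in 1, although an intact CDS of both genes was present in each of the 10 (the full 1563 bases of PpD3 in 7 of them). The genes Rpt3R and Alg12 lie between the 2 RefSeq spans.

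Joins with the CDS of the 5' gene carry the downstream gene as a 3' region, which is spliced in most but not all of them. Of these 200, 163 (81.5%) kept the start and stop of a 5' partner, and 156 (78.0%) held an intact CDS of the 3' gene after the stop. An exon junction over 50 bp beyond the stop was present in 180 of the 200. This arrangement was seen in 18 of 351 joins with the CDS of the 3' gene (5.13%) and in 2048 of 34671 coding transcripts outside the rule (5.91%). The high share follows in part from the structure, since the exons of the second gene lie after the stop. Whether such RNAs are degraded was not measured.

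CG33287 and CG12983, whose RefSeq spans are 3 bp apart on 3L, were joined by 10 transcripts of 6994 to 7277 bases with 14 to 17 exons. All listed the CDS of CG33287, with 3306 bases in 4 and 2649 bases in 6, and had a last exon junction 3194 to 3460 bases after the stop. CycG, a cyclin gene, was joined 6 times to RpL6, a gene of the large ribosomal subunit (3R, 31594791 to 31612725, minus strand). The 6 transcripts entered RpL6 at the acceptor 31595602, 4 of them from the donor 31599185. The CycG CDS of 1701 bases was complete in 5, with the last junction 87 bases after the stop in 4 and 235 bases in 1. The sixth, from the donor 31600388, had 1625 of its 1656 CDS bases in the CycG frame and 0 in the RpL6 frame. No join held an intact RpL6 CDS.

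**Figure D3:**
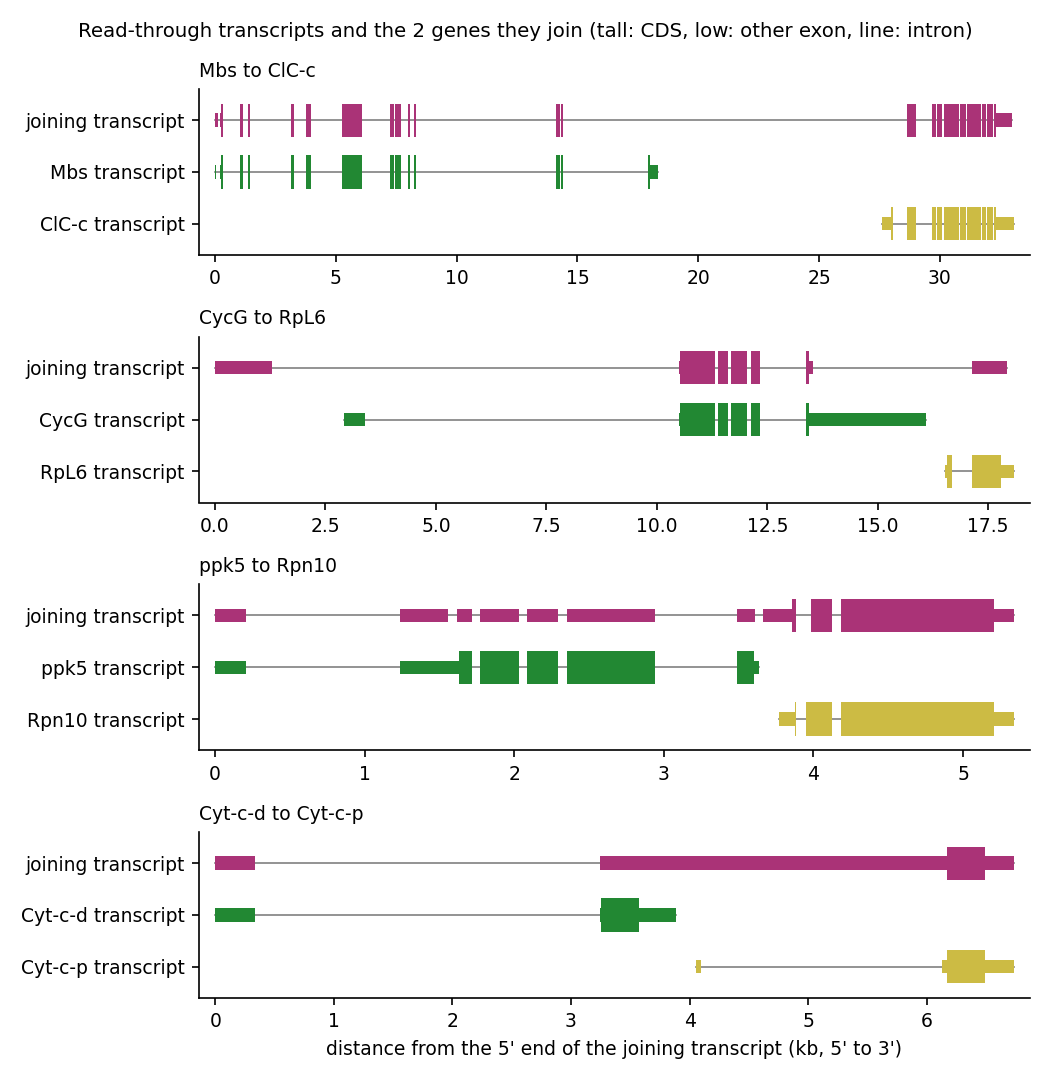
Exons of 4 joining transcripts and of a transcript of each gene they join, by distance from the 5' end of the join (kb); tall boxes are CDS, low boxes other exons, lines introns. Mbs to ClC-c has 1 CDS of 4791 bases over both genes, CycG to RpL6 keeps the CycG CDS, and ppk5 to Rpn10 and Cyt-c-d to Cyt-c-p keep the CDS of the 3' gene behind the upstream exons.

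Reading frames fused over both genes were a minority of joins. Of the 107 joins with a CDS over both genes, 72 (67.3%) were in frame with both, 32 with the 5' gene alone and 3 with the 3' gene alone. The 72 came from 54 pairs, and 64 of them ran from the start codon of a 5' partner to the stop codon of a 3' partner. Their CDS had a median of 1918.5 bases and a median of 85.3% of the 2 longest partner CDS added together. At least 50% of a CDS of each gene was covered by 57 of the 72, and at least 90% of the longest partner CDS of both genes was read in frame by 10. Here and below, the longest partner CDS is taken only over transcripts of a gene that are partners of the join. A longer CDS of that gene elsewhere in the catalogue is not counted.

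The longest fused CDS, 5100 bases, joined l(3)L1231 to CG7886 on 3R, against 2328 and 2433 bases for the longest partner CDS of the 2 genes. Next came 2 transcripts from Mbs, the targeting subunit of myosin phosphatase, to the chloride channel gene ClC-c (3L, 16062856 to 16095843, plus strand). They shared the intron from 16077283 to 16091515, at sites that both genes also used, over 4 genes. In the longer one the CDS of 4791 bases consisted of 2196 bases in the Mbs frame and 2595 in the ClC-c frame. The longest partner CDS had 2283 bases at Mbs and 2682 at ClC-c. The CDS from Gbeta76C to SREBP had 4164 bases, with the complete 3342 bases of SREBP behind 814 bases of Gbeta76C. That from Nak, a kinase gene, to Bhmt had 3657 bases, of which 381 were in the Bhmt frame. Rtf1, a gene of the Paf1 elongation complex, was fused to wrapper, which encodes a glial surface protein, with 2224 and 1325 bases in frame.

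CG45263 was joined 4 times to Veneno, a Tudor-domain gene, through 1 intron of 26902 bp, and all 4 were fused in frame (CDS 2970 to 3510 bases). The other 4 of the 10 longest fused CDS were in pairs whose RefSeq spans overlap: orb2 with CG43783 (3747 bases), CG33191 with Pif1A (3726), the exocyst gene Sec8 with CG2082 (3477) and CG9263 with B4 (3399). Pif1B has the same RefSeq span as Pif1A, so that these transcripts fit both names. The same CDS of 3726 bases was the longest one listed for Pif1A itself when Pif1A was paired with CG33189, so it can also be read as a CDS of 1 gene. CG9263 lies wholly inside the B4 span, and orb2 and CG43783 share most of their spans. The CDS of these pairs can be read in that way too. CG33191 with Pif1A had 7 joins and CG43106 with lov 6, and in both pairs the first gene lies inside the span of the second.

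**Figure D4:**
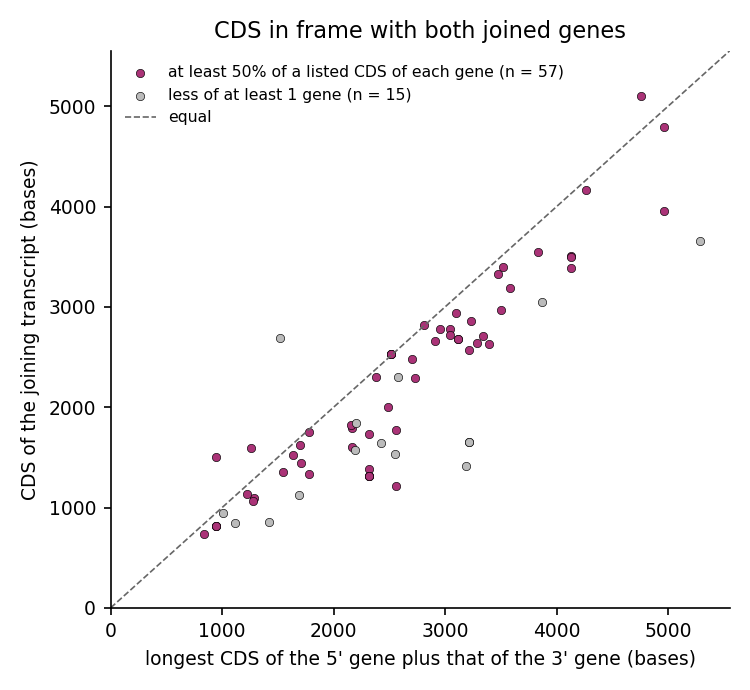
CDS length of the 72 joins in frame with both genes, against the longest partner CDS of the 5' gene plus that of the 3' gene (bases). Dark points cover at least 50% of a partner CDS of each gene (n = 57), pale points less of at least 1 gene (n = 15). The dashed line marks equal length. The CDS of a join had a median of 85.3% of the sum.

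A further 3 pairs with 7 joins each held transcripts of more than 1 class. Rtnl2, a reticulon gene, was joined 7 times to the esterase gene alpha-Est6 over 19 to 22 bp on 3R. In 4 transcripts the gap was exonic and the CDS was the 1707 bases of alpha-Est6. In 3 an intron of 186 bp, from 7528979 to 7528794, at sites not used by the partners, removed the end of the Rtnl2 CDS and gave 1 frame of 2526 bases with 743 bases of Rtnl2 and the whole alpha-Est6 CDS. CG31459 and MICU3, a gene of mitochondrial calcium uptake, were joined 7 times, 6 of them through the intron from 19841667 to 19850011, and 5 were in frame with both. CG12783 and CG10345 were joined 7 times through 5 introns over the neuropeptide gene NPF. Of the 3 in frame with both genes, 2 held 34 bases of the CG12783 CDS and 1 held 1041. Pairs with nearly as many joins could also be of a single class: mRRF2 and CG31161, whose RefSeq spans overlap, had 6 joins (as many as CycG with RpL6 and CG43106 with lov), and miple2 and ttm2 had 5. In both pairs each join had an exonic gap and the CDS of the 3' gene alone. These pairs fall outside the rule for named pairs and were picked after their values were seen.

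At least 90% of the longest partner CDS of both genes was in frame in those 3 transcripts of Rtnl2 and 1 of Mbs. A further 6 pairs had 1 such join each, named here after their values were seen. They were Polr1C with mRpL28, an RNA polymerase subunit and a mitochondrial ribosomal protein gene (1626 bases), BI-1 with CG7201 (1752), CG32548 with Nt5b (2778), CG5539 with CG5543 (2817), wun, a lipid phosphatase gene, with Non1 (2937), and Mkrn1 with SAK, the kinase gene of centriole duplication (3330). Each of these 6 fused CDS was listed for 1 transcript.

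Of 8044 genes with a coding transcript, 849 were in a joined pair (10.6%), counting pairs with overlapping spans too. In pairs with separate spans there were 772. Of 11 genes in tandem clusters of male-specific transcripts (Mst84D, Mst57D, Mst98C and the protamine genes), 4 had coding transcripts that could be named, and these 4 formed 2 pairs. Mst98Ca and Mst98Cb, sperm tail genes, were joined once by an RNA of 2253 bases with an intron of 271 bp over a gap of 140 bp. ProtB and ProtA, the protamine genes, were joined once by a 6-exon RNA of 1702 bases, which held both CDS intact (435 and 441 bases) and listed that of ProtB. Among germline markers, bol was joined to CG4911 and Argk1 by 1 transcript of 13 exons, with a CDS in frame with CG4911 and Argk1. The mitofusin gene of spermatids, fzo, was joined to cnc by 1 transcript with a CDS in the cnc frame. Both fzo and this transcript lie wholly inside the RefSeq span of cnc, so it can also be read as a transcript of cnc alone. The other 9 of 11 germline markers and all 4 cyst cell markers were in no pair. With so few genes, these counts are not read against the share over all genes.

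Genes whose symbols have a common stem, as tandem copies often do, were picked after the values were seen. They made up 17 of 415 pairs (4.1%). Among the 3106 tandem neighbours, 69 had a common stem (2.22%), and 14 of these 69 were joined (20.3%, interval 11.6 to 31.7), against 262 of 3037 without one (8.63%, interval 7.65 to 9.68). Pairs in which either symbol is a CG or CR number were counted as without a common stem, so tandem copies among them are not seen. No test of this difference was run, and gaps were not matched. Cyt-c-d, the cytochrome c gene of spermatids, was joined 3 times to Cyt-c-p, the cytochrome c gene of respiration (2L, 16715880 to 16722616, plus strand). All 3 transcripts held both CDS intact, 318 bases for Cyt-c-d and 327 bases for Cyt-c-p, and listed that of Cyt-c-p. The gap of 166 bp was exonic in 2 and removed by an intron of 2410 bp in 1. Hex-t1 and Hex-t2, testis hexokinase genes, were joined 2 times over 19 bp with both CDS intact (1398 and 1362 bases). The other pairs included tHMG1 with tHMG2, GstE5 with GstE6, GstT1 with GstT2 and ste24a with ste24b. A CDS in frame with both genes was listed for 1 of the 17 pairs, Nadk1b with Nadk1a (2 transcripts, 2676 bases).

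Loci known for sharing 1 RNA or exons between 2 proteins contributed 1 pair. Of 23 such genes looked up, 9 had a coding transcript with their name. The join was from ocn, a testis gene of the janus family, to the insulator gene ZIPIC, with the CDS of 447 bases of ocn intact and 1125 bases in the ZIPIC frame. Adh had 3 coding transcripts and Adhr none with its name, although 5 transcripts overlapped the Adhr span. In the same way mei-217 had 9 and mei-218 none, with 9 transcripts over its span. With no coding transcript named to the second gene, a join of these pairs could not be called. At other listed loci both genes had coding transcripts and no join was called, as for Su(var)3-9 (5) with eIF2gamma (4) and janA (4) with janB (1). The rule needs partners whose spans do not overlap, so genes that share exons can escape it. No absence of shared RNAs is read from these loci.

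Near the containment limit, 63 members had their best pair of partners contained by 80 to 85%, and 39 transcripts fell just below, at 75 to 80%. The values closest to the limit were 80.4% for a scra transcript and 80.2% for CG30122 inside it, with another scra transcript at the limit, and 79.8% for CG12024 and 79.4% for Syx5 outside it. Both partners lay wholly inside the member in 1117 cases. At least 2 partners on each side were present in 749 members, against 1865 when 1 partner on a side sufficed.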

How the data were processed

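The deposited file is a transcript annotation (GTF) that the authors made from all 4 libraries. Its values are positions and reading frames, of another kind than counts or levels: start and end of 40180 transcripts, 185203 exon lines and 149753 CDS lines with frame. The name of the deposited file records a TAMA merge, a correction step, filtering (the last by tappAS) and CDS prediction, while aligner and settings were not stated in the sources used here. The builds BDGP6 and dm6 stand in the submitters' processing notes.

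Each transcript was compared with all same-strand transcripts it overlaps (Python 3.11.15). A partner received the name of the protein-coding RefSeq gene (Release 6 assembly) that holds its CDS on its strand, with the best overlap where several do. The table gives no strand. It was taken from transcripts with an end within 200 bp of the gene's end when 80% agreed, which set 8651 of 13866 genes and left 246 ambiguous, and 89.9% of 36534 coding transcripts were named. Gaps, junctions, CDS overlap and frame were read from the positions. Intervals are exact binomial (scipy 1.17.1). In simulated data with 500 gene pairs, 200 of 200 planted joins were found with class, gap and frame right. Each simulated gene had a single transcript, wholly inside the join, and pairs lay far apart. The simulation therefore checks the arithmetic only. It does not cover isoforms, genes inside the gap, overlapping genes or partners that run past their gene.

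The members, the gene lists and the rule for named pairs were chosen with earlier results of these data known. That rule takes the 10 pairs with the most joins, the 5 largest and 5 smallest gaps, the 10 longest fused CDS and pairs with listed genes. No test between conditions or sets was run, and no genome sequence was used here.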

Additional observations from a re-analysis of the deposited data

How the results depend on the processing

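The main limits are single-transcript support for 268 of 415 pairs, gene spans without exons, and a catalogue in which depth and sample are unknown. The count of 1865 read-through transcripts lay between 1420 and 2060 with containment of 50% or 95%, with 50% or 90% of each partner's CDS held in exons, with a gap of at least 100 bp and with partner CDS of at least 300 bases. It was 1117 with partners wholly inside, 749 with at least 2 partners on each side, and 0 with partners of different locus numbers, because overlapping transcripts share a number. The 749 joins of 2 named genes lay between 501 and 804 under containment of 50%, 95% or 100%, exons holding 50% of each CDS, naming by overlap of spans, and separate RefSeq spans. The share with a CDS over both genes (16.8%) was 11.9% when the same reading frame was asked for and 8.54% when 50% of each CDS was. The median gap (815 bp over 749 joins) was 518 bp between RefSeq spans, and the 351 transcripts with an intron over the gap became 535 when an intron end inside it sufficed. The restriction to separate spans, added after seeing the data, gave 664 joins, 16.1%, 876 bp and 329. No paired analysis was possible because the catalogue pools the samples and carries no replicate numbers.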
